A study of Arabidopsis thaliana with 18 samples.

Results

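SPCH, MUTE and FMA are the basic helix-loop-helix (bHLH) transcription factor genes that carry a cell through the stomatal lineage of Arabidopsis thaliana. Their probe sets were found in the platform annotation by symbol. They were 3 of 38408 probe sets, 1 for each gene, and 3 of the 16542 genes that have a probe set of their own: SPCH (SPEECHLESS, AT5G53210), MUTE (AT3G06120) and FMA (FAMA, AT3G24140). The values of none of the 3 were identical to those of another probe set.

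Cotyledons of 6-day-old plants of 3 genotypes were compared: wild type (WT, Col) and 2 lines, bes1-1 and bes1-3, each with a T-DNA insertion in BES1, a transcription factor gene of brassinosteroid signalling. Each genotype was taken without culture (0 h) and after 72 h in VISUAL, an in vitro culture that turns leaf mesophyll cells into vascular cells. Cultured cotyledons received bikinin (10 µM), which blocks GSK3-like kinases, together with kinetin (0.25 mg/L), a cytokinin, and 2,4-D (1.25 mg/L), a synthetic auxin. The 6 groups held 3 arrays each, 18 in all, and no uncultured group was kept for 72 h, so the effects of the medium and of time cannot be told apart. The labels name no separate plants or cultures for the replicates, so p-values cover the spread among these arrays alone, and that spread may be technical. BES1 itself was not analysed here, so the genotype labels were not checked by its level.

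In a young leaf, SPCH starts the stomatal lineage through asymmetric divisions of protodermal cells. MUTE then ends these divisions and turns the meristemoid into a guard mother cell, and FMA, better known as FAMA, halts the last division and drives guard cell differentiation. Each acts in a dimer with the related bHLH proteins ICE1 (SCRM) and SCRM2, and secreted peptides of the EPF family, sensed by receptors of the ERECTA family and TMM, tune the number of cells that enter. GSK3-like kinases, the target of bikinin, act on both the YDA kinase cascade and SPCH in this pathway.

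Array medians ran from 5.189 to 5.464 (log2 signal) on the 6 arrays of replicate 1 and from 5.913 to 6.254 on the other 12, so values are best compared between arrays of the same replicate number. Lower quartiles were 3.145 to 3.223 and 4.015 to 4.137, and a group whose mean did not reach the averaged lower quartile of its own arrays was taken as not shown to be above background. Differences were fitted with limma over all 18 arrays. A probe set was called at a Benjamini-Hochberg adjusted p below 0.05 over all probe sets, and "the replicate block" is the same fit with the replicate number as a term. Changes are log2 differences ± the standard error (SE) of the fit, 3 arrays against 3. In a sample of whole cotyledons, fewer cells of a type and less RNA per cell cannot be told apart.

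SPCH fell steeply in every genotype over the 72 h. In WT its log2 signal was 7.45, 8.09 and 8.29 at 0 h and 3.66, 5.37 and 5.01 at 72 h, in the order of replicates 1, 2 and 3. In bes1-1 it was 7.24, 8.39 and 7.65 at 0 h and 2.96, 3.47 and 3.64 at 72 h. In bes1-3 it was 7.04, 8.66 and 8.13 before culture and 2.52, 3.99 and 2.82 after it. In each genotype all cultured arrays lay below all uncultured ones, as did 16.1% of all probe sets in WT, 14.7% in bes1-1 and 16.3% in bes1-3. The change was -3.26 ± 0.51 in WT (9.57-fold lower; adjusted p = 0.000188), -4.40 ± 0.51 in bes1-1 (21.2-fold; 1.46e-05) and -4.83 ± 0.51 in bes1-3 (28.5-fold; 4.06e-06), by limma. The means of bes1-1 (3.36 ± 0.36, SD) and bes1-3 (3.11 ± 0.78) at 72 h lay below the lower quartiles of their arrays (3.80 and 3.77), so the sizes of these falls are uncertain; the WT mean of 4.68 ± 0.90 lay above its own (3.73).

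**Figure D1:**
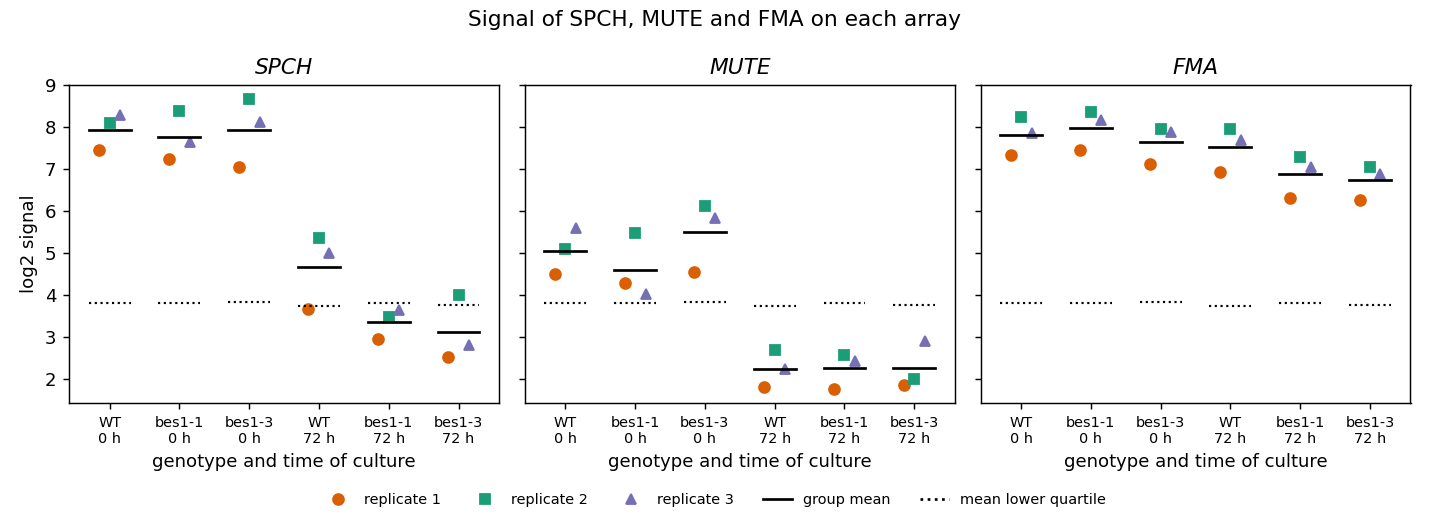
Log2 signal of SPCH, MUTE and FMA (y axis) on each of the 18 arrays, by genotype and time (x axis). Symbols are replicates 1 to 3, solid lines group means and dotted lines the mean lower quartile of the group's arrays. After culture SPCH lies at 2.52 to 5.37, MUTE at 1.77 to 2.90 and FMA at 6.26 to 7.95, and replicate 1 is the lowest array in every group other than that of MUTE in uncultured bes1-1.

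MUTE, the gene of the step from meristemoid to guard mother cell, also fell in every genotype. Its log2 signal at 0 h was 4.49, 5.09 and 5.59 in WT, 4.28, 5.47 and 4.03 in bes1-1 and 4.55, 6.12 and 5.84 in bes1-3. At 72 h it was 1.81, 2.69 and 2.25 in WT, 1.77, 2.57 and 2.42 in bes1-1 and 1.86, 2.01 and 2.90 in bes1-3. In each genotype the cultured arrays all lay below the uncultured ones. The same held for 16.1% of all probe sets in WT, 14.7% in bes1-1 and 16.3% in bes1-3. The 3 means at 72 h, 2.25 to 2.26, lay below the lower quartiles of 3.73 to 3.80. The change was -2.80 ± 0.47 in WT (6.98-fold lower; adjusted p = 0.000341), -2.34 ± 0.47 in bes1-1 (5.05-fold; 0.00185) and -3.24 ± 0.47 in bes1-3 (9.46-fold; 8.21e-05), by limma; since the cultured level is not shown to be above background, the sizes are uncertain.

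FMA, the last of the 3 to act, had the smallest changes. It was called in WT with the replicate block alone, and in bes1-3 its call depended on how the arrays' scale was handled. In WT its log2 signal was 7.33, 8.23 and 7.87 at 0 h and 6.92, 7.95 and 7.70 at 72 h, and the groups overlapped. In bes1-1 it went from 7.45, 8.35 and 8.17 to 6.30, 7.29 and 7.06, and in bes1-3 from 7.12, 7.96 and 7.88 to 6.26, 7.05 and 6.89, without overlap in either mutant. In this direction 14.7% of all probe sets lay apart in bes1-1 and 16.3% in bes1-3. The change was -0.29 ± 0.38 in WT (adjusted p = 0.763; 0.0159 with the replicate block), -1.11 ± 0.38 in bes1-1 (0.0491) and -0.91 ± 0.38 in bes1-3 (0.106; 1.28e-06 with the replicate block), by limma. Without the block, the bes1-3 change was also called after quantile normalization (adjusted p = 6.28e-05), after centring on array medians (7.63e-05) and on replicates 2 and 3 only (0.00262). The WT change was not called by limma in the same settings (adjusted p = 0.177, 0.117 and 0.384, in the same order). With the block 20.8% of all probe sets were called lower in WT, 21.9% in bes1-1 and 21.3% in bes1-3, and 18.9%, 28.5% and 24.2% higher. The bes1-1 call was lost without any 1 of 4 arrays: replicate 1 (adjusted p = 0.18) or 3 (0.0821) at 72 h, or replicate 2 (0.152) or 3 (0.14) at 0 h. These fits had no replicate term, so leaving out 1 array put the lower scale of replicate 1 out of balance between the groups. By limma the bes1-1 change was called with the block (adjusted p = 2.84e-07), after quantile normalization (1.04e-05) and after centring (6.37e-06). It was also called on replicates 2 and 3 only (0.0015), and not in a fit of the compared groups only (0.1). The differences between arrays of the same number were close to each other: -0.41, -0.28 and -0.17 in WT, -1.15, -1.06 and -1.11 in bes1-1 and -0.86, -0.90 and -0.98 in bes1-3. All 6 group means of FMA, 6.74 to 7.99, lay above the lower quartiles.

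Without the replicate block, 2 of the 3 genes were called lower in WT, against 10.8% of all probe sets. In bes1-1 all 3 were called lower, against 9.76% of all probe sets, and in bes1-3 2 of 3, against 11.4%. With the block all 3 were called lower in each genotype. The block called 20.8% of all probe sets lower in WT, 21.9% in bes1-1 and 21.3% in bes1-3. Averaged over the 3 genotypes, the changes were -4.16 ± 0.30 for SPCH (adjusted p = 1.27e-08), -2.79 ± 0.27 for MUTE (4.38e-07) and -0.77 ± 0.22 for FMA (0.0103), by limma without the block, against a share of 18% called lower. The median change of all probe sets was -0.0339 in WT, 0.0345 in bes1-1 and 0.0329 in bes1-3. Centring each array on its median lowered every change by 0.09 in WT, 0.28 in bes1-1 and 0.17 in bes1-3.

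The rank of each probe set within its array does not depend on the scale of the arrays. SPCH stood at percentiles 68.8 to 79.4 on the 9 uncultured arrays, at 31.5 to 42.4 on the cultured WT arrays and at 9.2 to 24.5 on the cultured arrays of both mutants. MUTE went from percentiles 24.2 to 51.2 down to 2.8 to 10.2, with bes1-1 replicate 3 the lowest of the uncultured arrays. FMA stood at 69.6 to 76.2 before culture, at 66.5 to 71.9 in cultured WT, at 59.2 to 62.8 in cultured bes1-1 and at 58.3 to 60.0 in cultured bes1-3. The percentiles of SPCH and FMA were thus lower on all arrays of each cultured mutant than on all cultured WT arrays, as were those of 11.8% of all probe sets in bes1-1 and 11.2% in bes1-3.

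**Figure D2:**
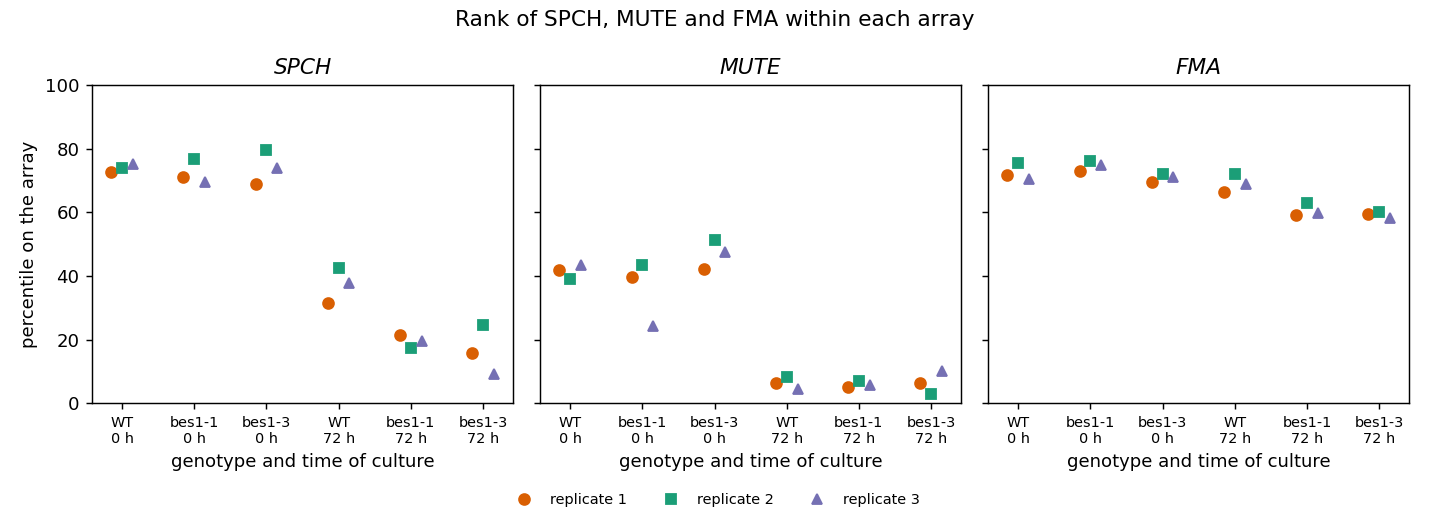
Percentile of each probe set among all 38408 probe sets of the same array (y axis), by genotype and time (x axis), with symbols for replicates 1 to 3. On the cultured arrays SPCH and FMA rank higher in WT (31.5 to 42.4 and 66.5 to 71.9) than on any mutant array, while MUTE ranks at 10.2 or lower in all 3 genotypes.

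For each gene the uncultured means stood above the cultured ones, and most neighbours among the 6 levels did not differ beyond their spread. For SPCH the uncultured bes1-3 and WT means (both 7.94) and the bes1-1 mean (7.76) were closer than the larger standard deviation (SD) of each pair of neighbours. Gaps of 3.08 down to cultured WT and of 1.33 from there to cultured bes1-1 exceeded the SD of 0.90, and the last gap of 0.25, to cultured bes1-3, did not exceed 0.78. For MUTE only the gap of 2.34 between uncultured bes1-1 and cultured bes1-3 exceeded the SD (0.77). For FMA only the gap of 0.64 between cultured WT and cultured bes1-1 did (0.53), and the arrays of these groups still overlapped. All these SDs and overlaps are of the deposited values and include the lower scale of replicate 1. Relative to array medians, the SD of FMA was 0.22 in cultured WT and 0.12 in cultured bes1-1.

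Before culture none of the 3 genes was called different between a mutant and WT. In bes1-1 minus WT at 0 h, where 0.0208% of all probe sets were called in either direction, SPCH stood at -0.18 (95% interval -1.27 to 0.91), MUTE at -0.46 (-1.46 to 0.54) and FMA at 0.18 (-0.62 to 0.98). In bes1-3 minus WT, where 0.00781% were called, the intervals were -1.09 to 1.09 for SPCH, -0.56 to 1.45 for MUTE and -0.96 to 0.64 for FMA. The intervals of SPCH and MUTE leave room for differences of over 1 on the log2 scale, and those of FMA stay under it. The MUTE difference in bes1-1 came mostly from 1 pair of arrays, with -0.21, 0.38 and -1.56 in replicates 1, 2 and 3.

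After 72 h SPCH and FMA were lower in both mutants than in WT in every pair of arrays of the same number, and the call depended on how the arrays' scale was handled. SPCH in bes1-1 minus WT differed by -0.71, -1.89 and -1.37, and in bes1-3 minus WT by -1.15, -1.37 and -2.19. FMA differed by -0.63, -0.65 and -0.65 in bes1-1 and by -0.66, -0.89 and -0.81 in bes1-3. The arrays of bes1-1 and WT did not overlap for SPCH (4.57% of all probe sets lay apart in this direction), while those of bes1-3 and WT did, at 3.99 against 3.66. Of all probe sets, 17.8% were lower in all 3 pairs in bes1-1 and 18.6% in bes1-3. Both mutants were compared with the same 3 WT arrays, so the 2 comparisons are not independent.

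On the values as deposited, limma without the block called none of the 3 genes at 72 h. SPCH stood at -1.33 ± 0.51 in bes1-1 (adjusted p = 0.394, 95% interval -2.42 to -0.23) and at -1.57 ± 0.51 in bes1-3 (0.522, -2.66 to -0.48). FMA stood at -0.64 ± 0.38 in bes1-1 (adjusted p = 0.772, -1.44 to 0.16) and at -0.79 ± 0.38 in bes1-3 (0.988, -1.59 to 0.01). At this threshold 0.844% of all probe sets were called in bes1-1 and 0.13% in bes1-3. With the replicate block the SE of SPCH fell to 0.26 and its adjusted p was 0.0056 in bes1-1 and 0.0051 in bes1-3; the SE of FMA was 0.08 and its adjusted p 0.000429 and 0.000413. The block called 6.3% of all probe sets lower in bes1-1 and 3.46% in bes1-3. Without the block, SPCH was called after quantile normalization (adjusted p = 0.0128 in bes1-1 and 0.0145 in bes1-3) and after centring on array medians (0.00862 and 0.013). So was FMA, with 0.00751 and 0.00888 after quantile normalization and 0.0111 and 0.0165 after centring. Within replicates 2 and 3 alone the adjusted p was 0.0514 and 0.0846 for SPCH and 0.0696 and 0.0663 for FMA, in the same order. Leaving out the bes1-1 array of replicate 1 brought the FMA difference in bes1-1 to -0.351. That fit had no replicate term and kept replicate 1 of WT, so the lower scale of replicate 1 was in WT only. The differences between arrays of the same number were -0.63, -0.65 and -0.65. The size of the SPCH difference is uncertain, because the mutant levels are not shown to be above background.

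MUTE did not separate the genotypes at 72 h. It stood at 0.01 in each mutant against WT, with 95% intervals of -1.0 to 1.01, at a level not shown to be above background in any genotype, so a difference was not detectable there.

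**Figure D3:**
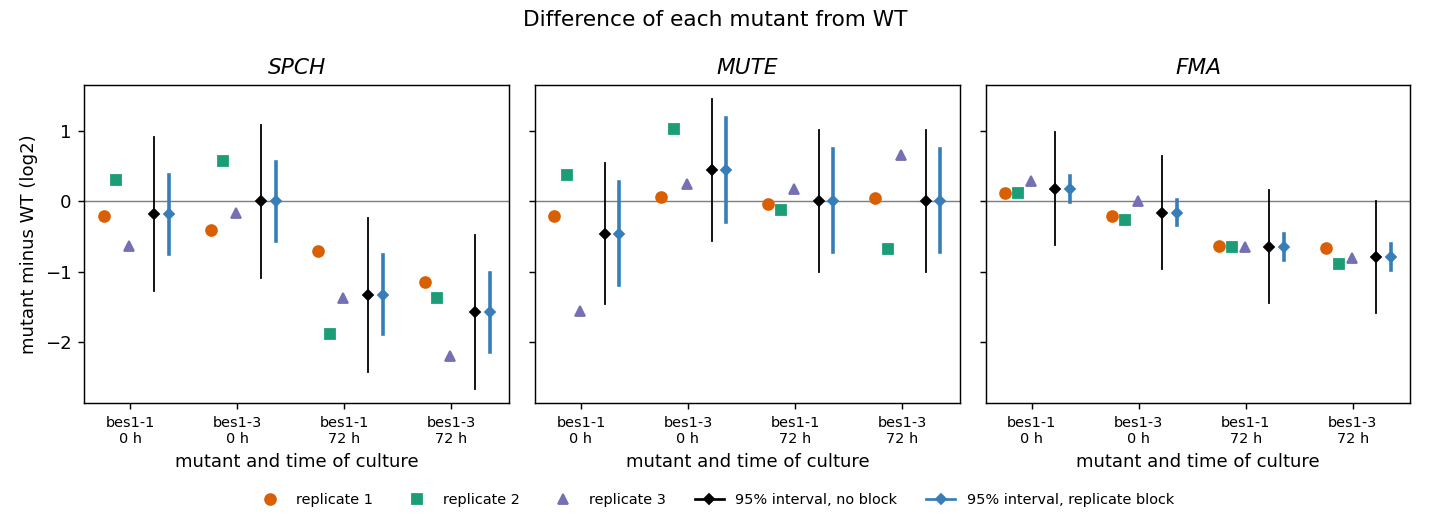
Difference of each mutant from WT (y axis, log2) at 0 h and 72 h (x axis) for SPCH, MUTE and FMA. Coloured symbols are the differences between arrays of the same replicate number, and diamonds with bars are the fitted differences with 95% intervals without (black) and with (blue) the replicate block. At 72 h all 12 pairs of SPCH and FMA lie below 0, from -2.19 to -0.63, while those of MUTE lie on both sides.

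Whether the fall over the culture itself differed between genotypes was tested as a difference in induction. For SPCH it was -1.14 ± 0.72 in bes1-1 minus WT (adjusted p = 0.927, 95% interval -2.69 to 0.40) and -1.57 ± 0.72 in bes1-3 minus WT (1.0, -3.11 to -0.03), by limma, and neither was called. For FMA it was -0.82 ± 0.53 in bes1-1 (adjusted p = 0.945, -1.96 to 0.31) and -0.63 ± 0.53 in bes1-3 (1.0, -1.76 to 0.51), and FMA was called in bes1-1 after quantile normalization (0.0255) and after centring on array medians (0.0286). MUTE differed by 0.47 ± 0.67 and -0.44 ± 0.67, with intervals of -0.95 to 1.88 and -1.86 to 0.98. Of all probe sets 0.0521% were called in the bes1-1 difference and 0% in that of bes1-3, where limma gave 975 at an unadjusted p under 0.05 and the block called 431. The mutants were not called different from each other at either time, where 0.0703% (0 h) and 0.0104% (72 h) of all probe sets were called. The largest of these differences was that of MUTE at 0 h, -0.91 ± 0.47 (95% interval -1.91 to 0.10), and SPCH at 72 h stood at 0.25 (-0.84 to 1.34).

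The rest of the stomatal pathway was covered thinly: 9 of 37 listed genes had a probe set with 1 gene name, and the partners ICE1 and SCRM2, the receptors and the early peptides EPF1 and EPF2 were not analysed here. Averaged over the genotypes 6 of the 9 fell and 1 rose, with a median of -0.978 against 0.00896 for all probe sets, of which 18% fell and 19.8% rose. These counts are of listed genes, some of them genes of EPF-like peptides whose place in the stomatal pathway was not tested. STOMAGEN, whose secreted peptide is made in mesophyll and promotes stomatal formation, changed by -2.41 ± 0.40 in WT, -2.04 ± 0.40 in bes1-1 and -2.75 ± 0.40 in bes1-3. ATSBT5.2, a subtilisin-like protease also known as CRSP that acts on EPF2, changed by -2.70 ± 0.32, -3.0 ± 0.32 and -2.54 ± 0.32. Both were called lower in all 3 genotypes.

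The 4 other genes that fell in the average were AT5G10310 (-1.0 ± 0.30; adjusted p = 0.0136), AT4G37810 (-1.17 ± 0.22), AT1G71866 (-0.98 ± 0.17) and AT1G80133 (-0.63 ± 0.20; 0.0196), which the platform and TAIR10.1 tables give by locus only. After culture the last 3 lay below the lower quartile in every genotype, so the sizes of their falls are uncertain. AT1G71866 lay below it also before culture in bes1-1 (3.73) and bes1-3 (3.41), so its fall there lies between levels not shown to be above background. AT3G13898 stood at 0.23 ± 0.13 and was below the lower quartile in every group. It and the 4 genes above were listed as genes of EPF-like peptides, and their part in the stomatal lineage was not tested. The gene that rose was ATBRXL2, which encodes a protein of the BREVIS RADIX family that takes part in the polarity of asymmetric divisions. It rose by 1.97 ± 0.27 in WT, 1.71 ± 0.27 in bes1-1 and 2.40 ± 0.27 in bes1-3. SOL1, a regulator of division in the lineage, stood at 0.18 ± 0.17 and was not called. In single genotypes 5 were called lower and 1 higher in WT, and 3 lower and 1 higher in each mutant; the shares of all probe sets called higher were 8.7% in WT, 10.9% in bes1-1 and 10.3% in bes1-3. With the replicate block, 6 were called lower and 2 higher in WT, 5 and 1 in bes1-1 and 5 and 2 in bes1-3. Under the block 20.8%, 21.9% and 21.3% of all probe sets were called lower and 18.9%, 28.5% and 24.2% higher, in the same order.

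The closest relatives of the 3 factors, the other genes of bHLH subgroup Ia, fell more often than not. Of 6 measured of 7, 4 fell and 1 rose in the average over genotypes, with a median of -1.86, against 18% and 19.8% of all probe sets and their median of 0.00896. AT3G61950 changed by -2.76 ± 0.39 in WT, -2.84 ± 0.39 in bes1-1 and -2.95 ± 0.39 in bes1-3, and AT4G01460 by -2.28 ± 0.37, -1.89 ± 0.37 and -2.92 ± 0.37, all called. AT3G61950 and bHLH96 lay below the lower quartile in all 3 cultured groups and AT4G01460 in both cultured mutants. AT2G46810 and bHLH96 were called lower in WT (-3.50 ± 0.55 and -1.76 ± 0.35) and bes1-3 (-3.23 ± 0.55 and -1.91 ± 0.35) and not in bes1-1 (-1.33 ± 0.55 and -0.38 ± 0.35), where the replicate block called AT2G46810 lower (adjusted p = 0.00204) and not bHLH96 (0.253). The bes1-1 difference in induction of these genes was 2.16 ± 0.78 (adjusted p = 0.518) and 1.38 ± 0.50 (0.524), not called by limma without the block. In bes1-1 their means at 0 h, 6.59 ± 0.28 and 3.92 ± 0.48 (SD), lay below those of WT, 7.66 ± 0.35 and 5.06 ± 0.56. AT5G65320 was the gene that rose (0.53 ± 0.20; adjusted p = 0.0492), and bHLH94 stood at 0.01 ± 0.29.

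**Figure D4:**
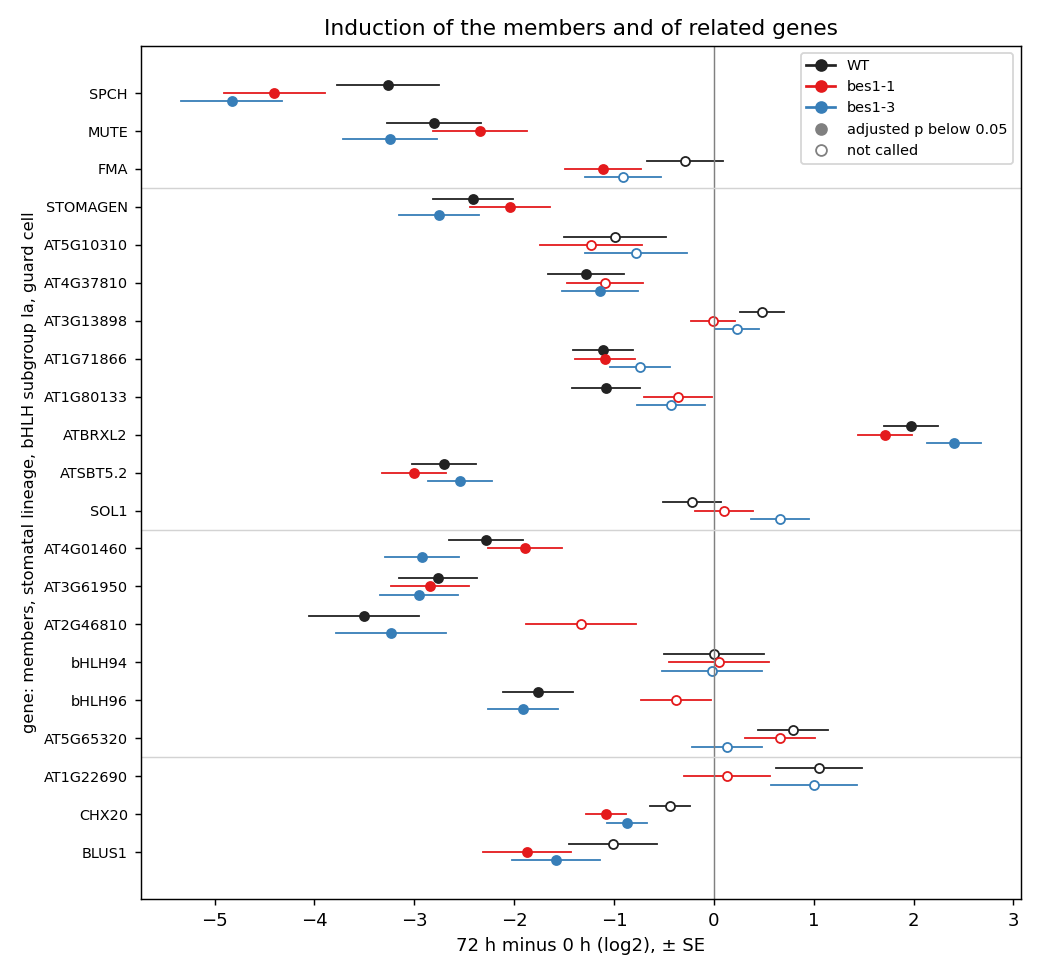
Change over 72 h of culture (x axis, log2, ± SE) in WT, bes1-1 and bes1-3 for SPCH, MUTE and FMA and, below the grey lines, the measured genes of the stomatal lineage, bHLH subgroup Ia and guard cell lists (y axis). Filled circles were called at an adjusted p below 0.05. SPCH and MUTE lie at -2.34 or lower in each genotype, and ATBRXL2, at 1.71 to 2.40, is the gene of these lists called higher in each genotype.

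Genes of mature guard cells, the product of the lineage, moved less than SPCH and MUTE. Only 3 of 14 listed were measured. CHX20, a cation/proton exchanger gene of guard cells, stood at -0.44 ± 0.20 in WT, -1.08 ± 0.20 in bes1-1 and -0.87 ± 0.20 in bes1-3, and BLUS1, a kinase of blue light signalling in guard cells, at -1.01 ± 0.44, -1.87 ± 0.44 and -1.58 ± 0.44. Both were called in the mutants and not in WT, where the replicate block called both lower; their differences in induction were not called (adjusted p = 0.676 to 1.0). AT1G22690 stood at 1.05 ± 0.43, 0.13 ± 0.43 and 1.00 ± 0.43 and was called higher in the average over genotypes (0.73 ± 0.25; adjusted p = 0.0291) and, with the replicate block, in WT (0.00012) and bes1-3 (0.000155). At 72 h CHX20 stood at -0.54 ± 0.20 in bes1-1 minus WT and -0.55 ± 0.20 in bes1-3 minus WT, with adjusted p-values of 0.352 and 0.684 by limma and of 0.0201 and 0.0309 with the replicate block. TRY, a repressor of trichome fate and the only one of 17 epidermis and trichome genes measured, changed by -1.69 ± 0.31 in the average (adjusted p = 0.000346) and was called lower in bes1-3 (-2.36 ± 0.54) and, with the replicate block, also in WT (-1.23 ± 0.54; adjusted p = 0.00348) and bes1-1 (-1.48 ± 0.54; 0.000877).

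Listed markers of the other cells of the cotyledon moved over the same 72 h. In the average over genotypes 18% of all probe sets were called lower and 19.8% higher. The lists were chosen with earlier results of these data known, so the counts describe the chosen genes and are no test of cell types. All 4 measured mesophyll genes of 12 fell, led by PRK (-3.04 ± 0.35), SBPASE (-2.91 ± 0.17) and PORB (-2.71 ± 0.24), enzymes of the Calvin cycle and of chlorophyll synthesis. Their summed signal (log2) was 13.36 to 13.91 before culture and 11.29 to 11.63 in cultured WT, 10.54 to 12.19 in bes1-1 and 10.65 to 11.21 in bes1-3. All 7 measured vascular genes of 21 rose, led by CLE44 (4.27 ± 0.33), IRX15 (3.66 ± 0.31) and OPS (3.58 ± 0.32), and their summed signal went from 9.02 to 10.08 up to 12.53 to 13.32 in WT, 11.63 to 12.75 in bes1-1 and 12.08 to 13.10 in bes1-3. All 3 measured cell division genes of 7 rose: AUR1 (2.46 ± 0.16), AUR2 (3.48 ± 0.19) and AUR3 (1.87 ± 0.19), kinases of mitosis, with summed signals of 8.36 to 9.39 before and 10.84 to 11.96 after culture. None of the 14 was below the lower quartile after culture, but 2 of the vascular genes, IRX15 among them, were below it in all 3 groups at 0 h, so the sizes of their rises are uncertain. The part of these changes in the falls of SPCH, MUTE and FMA was not tested.

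The named probe sets with the profiles most like each of the 3 genes were ranked by Pearson's r over the 18 arrays, after the mean of each replicate number was subtracted. For SPCH they were AT2G47390 (0.993), AT3G17070 (0.993) and AT3G15356 (0.992), and AT3G15356 also went from 9.98, 9.63 and 9.72 in WT, bes1-1 and bes1-3 to 6.68 in cultured WT and to 5.18 and 5.16 in the mutants. For MUTE they were Cpn60beta2 (0.983), a plastid chaperonin gene, AT1G47530 (0.983) and AT1G51620 (0.981). For FMA they were FDH (0.981), the formate dehydrogenase gene, SFP1 (0.980) and GSTU26 (0.972), a glutathione transferase gene. FDH went from 11.20, 11.34 and 11.02 to 10.53 in cultured WT and to 9.75 and 9.55 in the mutants. Values of r above 0.9 were common for SPCH (8.61% of 16721 probe sets) and MUTE (7.82%) and less so for FMA (1.1%), and all arrays share the split between 0 h and 72 h, so these likenesses are a description.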

How the data were processed

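RNA of 18 cotyledon samples was hybridised to 1 array each. The values deposited by the authors, 1 for each probe set on each array, were taken to be on a log2 scale, from their range. Per the submitters' processing notes, Affymetrix Expression Console was used; its version, background correction and normalization were not given in the sources used here. Probe sets were named through the platform table (16722 with 1 gene, 759 with several, 20927 not listed) and the TAIR10.1 gene table. The fit (limma 3.58.1, R 4.3.3, lmFit and eBayes) took all 38408 probe sets (6 group means, 12 residual degrees of freedom, 12 contrasts) and was tested on simulated data. The simulated arrays had no shift shared within a replicate number, so that test does not cover the lower scale of replicate 1. The number of arrays limits the precision.

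The replicate numbers were taken to pair the arrays where, for every number, deviations from the group means correlated above 0.1 over probe sets. This held for the 3 inductions (0.168 to 0.506) and for every pairwise contrast of genotypes other than bes1-1 minus WT at 0 h (lowest 0.0106); it did not hold for the differences in induction (lowest 0.0106 and 0.0802) or the average over genotypes (0.0106).

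Alternatives were the replicate block, quantile normalization, median centring, replicates 2 and 3 only, a filter on dim probe sets, a fit of the compared groups only and leaving out each array. The genes and lists were chosen with earlier results of these data known. Named are SPCH, MUTE and FMA, all measured genes of the lineage, bHLH, guard cell and epidermis lists, the 3 largest changes of the other lists and the 3 closest profiles. No sequences were used here. The plots were made in Python 3.11.15 (matplotlib 3.10.9).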

Additional observations from a re-analysis of the deposited data

How the results depend on the processing

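SPCH and MUTE were called lower in each genotype under every alternative run (MUTE has no value under the filter on dim probe sets, which removed it), and in the average over genotypes so was FMA. FMA was called in WT with the replicate block (-0.286), in bes1-3 with the block (-0.915), quantile normalization (-1.05), centring (-1.08) and replicates 2 and 3 only (-0.943), and was not called in bes1-1 in a fit of those groups only (-1.11). In bes1-1 minus WT at 72 h, SPCH was called with the block (-1.33), quantile normalization (-1.36) and centring (-1.45), and FMA likewise (-0.643, -0.763 and -0.767). In bes1-3 minus WT at 72 h these values were -1.57, -1.59 and -1.64 for SPCH and -0.788, -0.891 and -0.862 for FMA. MUTE, near 0 there, changed sign with quantile normalization (-0.0366 in bes1-1, -0.0208 in bes1-3), centring (-0.118, -0.0666) and, on replicates 2 and 3 only, in bes1-3 (-0.0123) and in bes1-1 minus bes1-3 (0.0401). The difference in induction of FMA was called in bes1-1 with the block (-0.82), quantile normalization (-0.979) and centring (-1.01), and in bes1-3 with the block (-0.629); pairing was not shown for these contrasts, where the block also called the bes1-1 differences of AT2G46810 (adjusted p = 0.00816), bHLH96 (0.0437) and AT1G22690 (0.0262). The block changed no other call of the 3 genes. For each of these the cause was not tested.

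The fits without 1 array had no replicate term, so each put the lower scale of replicate 1 out of balance between groups. For FMA in the WT induction the differences between arrays of the same number were -0.41, -0.28 and -0.17. Without 1 array, FMA ranged from -0.524 to 0.0144 in the WT induction (above 0 without WT replicate 1 at 72 h) and from -1.38 to -0.815 in that of bes1-1. At 0 h, SPCH ranged from -0.495 to 0.0785 in bes1-1 minus WT, -0.356 to 0.45 in bes1-3 minus WT and -0.631 to 0.174 between the mutants, and FMA from -0.0607 to 0.447 and -0.398 to 0.106 against WT. At 72 h against WT, SPCH ranged from -1.83 to -0.982 in bes1-1 and -2.08 to -1.23 in bes1-3 and FMA from -0.943 to -0.351 and -1.09 to -0.551, none called. MUTE ranged from -0.213 to 0.247 and -0.315 to 0.229, and between the mutants SPCH from -0.0504 to 0.687, MUTE from -0.201 to 0.321 and FMA from -0.0912 to 0.437.

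The number of probe sets called moved more than the 3 genes did. Over the alternatives that keep all arrays of a replicate number it ranged from 6271 to 15250 in the WT induction (7494 in the fit reported), 5321 to 19372 in bes1-1 (7939), 6724 to 17502 in bes1-3 (8358) and 14107 to 24895 in the average (14506). Against WT it ranged from 3 to 41 (8) in bes1-1 and 0 to 6 (3) in bes1-3 at 0 h, and from 2 to 5163 (324) and 0 to 2807 (50) at 72 h. Between the mutants it ranged from 0 to 301 (27) at 0 h and 2 to 446 (4) at 72 h, and in the differences in induction from 0 to 3199 (20) and 0 to 431 (0). In every contrast the replicate block gave the highest count, which quantile normalization equalled in bes1-3 minus WT at 0 h. Signal near background limits MUTE after culture and SPCH in the cultured mutants.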
